A study of Homo sapiens with 6 samples.

Results

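The genes described here are 42 cytosolic, nuclear and mitochondrial heat shock chaperones, their co-chaperones and the heat shock transcription factors HSF1 and HSF2. Members were chosen by gene symbol, and all 42 were found among the 61806 gene IDs of the count table. SERPINH1, a collagen chaperone of the endoplasmic reticulum, is on the list as a heat shock gene although it is neither cytosolic nor mitochondrial.

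RNA of U937 cells, a human monocytic line entered in the labels as AML, was sequenced in 3 libraries from cells given ethacrynic acid and in 3 from cells given DMSO, the vehicle. Cells of both groups grew in RPMI medium with fetal calf serum and antibiotics. Titles give day 3 and the treatment note gives 2 days of ethacrynic acid, and no label used here states a dose or a genetic change. The study asks about the compound in myeloid differentiation, and the question followed here is how transcripts of the chaperone network stood in treated cells.

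Chaperones of the HSP70 class bind unfolded stretches of proteins in a cycle of ATP hydrolysis that J proteins (HSP40) start and that nucleotide exchange factors of the HSP110 and BAG families end. HSP90 receives clients from HSP70 through adaptor co-chaperones, small heat shock proteins hold unfolded proteins without using ATP, and the HSPD1 and HSPE1 chamber folds proteins inside mitochondria. When unfolded proteins accumulate, as after heat or after compounds that react with protein thiols, HSF1 forms trimers that bind heat shock elements (inverted repeats of GAA) and switch on many of these genes. Ethacrynic acid is a loop diuretic that reacts with thiols.

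The 6 libraries held 57516146 to 68128543 counts, and 19611 genes were tested. Along the first principal component of all genes, ethacrynic acid replicate 3 scored 93.9 and the other 5 libraries between -36.9 and -10.4. It also carried epithelial transcripts. All 5 listed epithelial markers (EPCAM, KRT8, KRT18, KRT19, CDH1) were measurable, and their summed level was 39.8, 46.5 and 438 CPM in ethacrynic acid replicates 1, 2 and 3, against 45.1, 49.1 and 29.3 CPM in DMSO replicates (CPM, counts per 1000000 after TMM scaling). All 10 monocytic and myeloid markers were measurable, with summed levels of 3061 to 3919 CPM under ethacrynic acid and 2531 to 2917 CPM under DMSO. Summed T cell markers lay at 8.66 to 19.7 CPM under ethacrynic acid and 15.1 to 18.5 CPM under DMSO, and summed B cell markers at 14.7 to 15.1 CPM under ethacrynic acid and 14.6 to 15.8 CPM under DMSO. Fibroblast markers did not exceed 1.03 CPM under ethacrynic acid or 0.463 CPM under DMSO, with COL1A2, COL3A1, DCN and LUM at 0 counts. Erythroid markers did not exceed 0.196 CPM under ethacrynic acid or 0.111 CPM under DMSO, with HBB, HBA1 and HBA2 at 0.

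Transcripts of the constitutive HSP70, HSPA8, stood 2.29-fold above DMSO, the largest difference of the set, and those of the inducible HSP70 genes HSPA1A and HSPA1B stood about 1.57-fold and 1.47-fold above DMSO. HSP90, the mitochondrial chaperonin and several co-chaperones had positive differences below that of HSPA1A, the largest being AHSA1 at 1.51-fold. Among others, the 95% intervals of HSP90AB1, HSPD1, STIP1, CDC37, STUB1, ST13 and BAG2 spanned 0. So did those of HSPA6, HSPA4, HSPA9 and both heat shock factors. All 42 members passed the filter on low counts. At an adjusted p under 0.05 (edgeR quasi-likelihood test, Benjamini-Hochberg over all 19611 genes), 0 members were called higher and 0 lower, where 0.229% of all genes were called higher and 0.0357% lower. Without adjustment, 13 members were higher at p under 0.05 and 0 lower, beside 6.54% of all genes higher and 4.6% lower. DESeq2, run on the same counts, called 8 members higher (AHSA1, BAG1, BAG3, DNAJA1, HSPA1A, HSPA1B, HSPA8 and HSPE1) where it called 2% of all genes higher, and limma-voom called 0. An edgeR fit with a stricter filter and another without ethacrynic acid replicate 3 each called HSPA8 alone among the members, where 0.736% and 0.592% of all genes were called higher. No source used here says that replicates were grown as separate cultures, so each p-value covers only the spread between libraries, which may be technical. RNA of a whole culture was measured, and a change in the mix of cells cannot be told apart from a change in RNA per cell.

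In 14 members every ethacrynic acid library lay above every DMSO library, and in 0 members below, beside 8.64% of all genes above and 8.99% below. The log2 fold change was positive in 35 of 42 members, and in 27 of 42 when libraries were scaled to their total count alone, where 8 members near 0 changed sign. Over all genes 49.9% were positive. The median over members was 0.24 (0.15 with total count scaling), beside -0.00035 over all genes. In 25 members the means differed by less than 1.2-fold, and in 8 the ethacrynic acid mean was at least 1.4-fold higher.

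**Figure D1:**
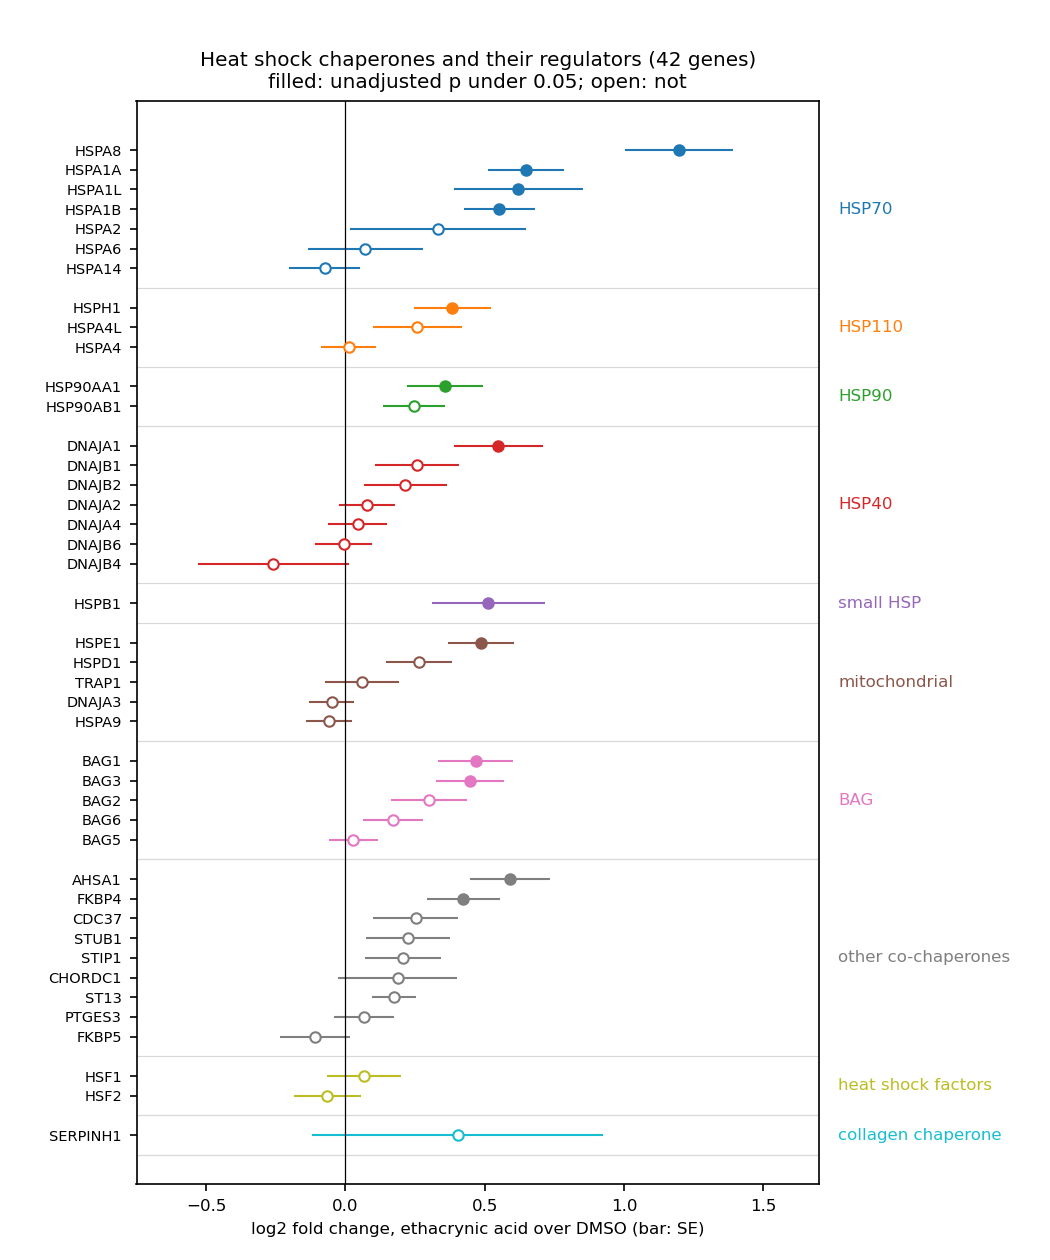
Log2 fold change of ethacrynic acid over DMSO (horizontal axis) for each of the 42 genes, grouped by family; bars are SE, and filled points have an unadjusted p under 0.05. HSPA8 lies farthest right at 1.20, and the filled points are all on the positive side.

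A list of 19 members known to be induced by heat was set against the other 23. Of the heat-inducible members 18 had a positive log2 fold change, 11 an unadjusted p under 0.05, and the median was 0.40. The exception was DNAJB4, a J protein, at -0.26 ± 0.27 (SE), whose sign turned without ethacrynic acid replicate 1. Of the other 23, 17 were positive, 2 had an unadjusted p under 0.05 (BAG1 and HSPA1L), and the median was 0.07. With total count scaling the median of the heat-inducible members was 0.34, with 17 of 19 positive, and that of the other members was -0.02. Without DMSO replicate 3 the median of the other members was -0.0002. Without ethacrynic acid replicate 3, 16 of 19 heat-inducible members were positive, with SERPINH1 and HSPA6 then below 0. The medians were then 0.46 for the heat-inducible members and 0.14 for the others. The lists were chosen with earlier results of these data known, so the difference between them is not independent support. It was not tested.

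The HSP70 family gave the highest family median, at 0.55 over 7 genes. HSPA8 (chr11:123057489-123063230, minus strand, GRCh38) encodes HSC70, the constitutive cytosolic HSP70 that also uncoats clathrin vesicles and carries substrates to chaperone-mediated autophagy. It had 907, 932 and 644 CPM in ethacrynic acid replicates 1, 2 and 3, against 350.4, 444 and 289 CPM in DMSO replicates 1, 2 and 3. Each ethacrynic acid library lay above each DMSO library, and replicate 3 was the lowest library in each group. The log2 fold change was 1.20 ± 0.19 (SE; 95% interval 0.75 to 1.65), with an unadjusted p of 0.000293 and an adjusted p of 0.0772 by the edgeR test, rank 74 of all genes. Without ethacrynic acid replicate 3 the same test gave 1.34 and an adjusted p of 0.0118, and HSPA8 was then called. Leaving out any other single library gave an adjusted p of 0.114 to 0.365. Of the counts over HSPA8 and 17 named pseudogenes, 99.9% were in HSPA8.

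HSPA1A (chr6:31815464-31817946) and HSPA1B (chr6:31827735-31830255), plus-strand neighbours on chromosome 6, encode the classical stress-inducible HSP70. HSPA1A had 58.3, 63.9 and 68.6 CPM under ethacrynic acid, against 40.7, 47.3 and 33.7 CPM under DMSO. HSPA1B had 63.8, 68.9 and 69.8 CPM under ethacrynic acid, against 45.1, 54.0 and 39.0 CPM under DMSO. In both genes the groups did not overlap, and here replicate 3 was the highest ethacrynic acid library. The log2 fold change was 0.65 ± 0.14 for HSPA1A (adjusted p = 0.156, edgeR) and 0.55 ± 0.13 for HSPA1B (adjusted p = 0.192, edgeR). Since 72.6% of the 50-base stretches of HSPA1A also occur in HSPA1B, reads may have been shared between them. Their sum was 122, 133 and 138 CPM under ethacrynic acid, against 85.8, 101 and 72.8 CPM under DMSO, a log2 fold change of 0.60 ± 0.13 (adjusted p = 0.171, edgeR). DESeq2 called both genes higher. Because reads may be shared, these genes may not be independent entries in the family median and in the counts over members.

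HSPA6 encodes an HSP70 that is nearly silent in unstressed cells and strictly dependent on stress. Its level was 4.42, 4.98 and 5.36 CPM under ethacrynic acid, against 5.18, 3.74 and 5.14 CPM under DMSO. The groups overlapped, with the lowest library under DMSO and the highest under ethacrynic acid, and the log2 fold change was 0.07 ± 0.21 with a 95% interval of -0.41 to 0.55. The sign changed to -0.09 when counts of HSPA7, a copy sharing 45.5% of the 50-base stretches of HSPA6, were added, and HSPA6 held 18.7% of the counts of both. HSPA1L, another gene next to HSPA1A known for its expression in testis, had 2.65, 2.92 and 3.08 CPM under ethacrynic acid, against 1.54, 2.07 and 2.01 CPM under DMSO (log2 fold change 0.62 ± 0.23, adjusted p = 0.410 by edgeR). HSPA1L did not overlap between groups but was among the 5 members under 10 CPM. HSPA2, another testis HSP70, lay between 0.868 and 1.88 CPM, and HSPA14, which sits with a J protein on the ribosome, had a log2 fold change of -0.07.

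Promoters of these genes are shown because all but 1 of the HSP70 genes with a sequence carry heat shock element letters while their RNA differences ran from 0.07 to 1.20. Each sequence is the 250 bases before a RefSeq start (GRCh38.p14), 5′ to 3′ on the strand of the gene. Capitals mark matches to GAANNTTC or TTCNNGAA, the pair of inverted units, which include every match to the triple forms GAANNTTCNNGAA and TTCNNGAANNTTC. Both strands were read. The windows are chr11:123062137-123062386 (minus strand) for HSPA8, chr6:31815293-31815542 and chr6:31827488-31827737 (plus strand) for HSPA1A and HSPA1B, and chr1:161524290-161524539 (plus strand) for HSPA6.
HSPA8: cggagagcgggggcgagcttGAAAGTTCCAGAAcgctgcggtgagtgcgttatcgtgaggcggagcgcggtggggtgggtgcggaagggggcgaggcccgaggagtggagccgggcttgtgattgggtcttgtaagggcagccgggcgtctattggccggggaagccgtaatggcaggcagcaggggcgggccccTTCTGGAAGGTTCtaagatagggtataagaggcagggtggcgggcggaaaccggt
HSPA1A: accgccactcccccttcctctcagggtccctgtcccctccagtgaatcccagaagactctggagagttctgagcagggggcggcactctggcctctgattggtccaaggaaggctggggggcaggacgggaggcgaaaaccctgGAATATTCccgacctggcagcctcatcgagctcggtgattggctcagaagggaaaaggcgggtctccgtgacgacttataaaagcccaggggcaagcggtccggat
HSPA1B: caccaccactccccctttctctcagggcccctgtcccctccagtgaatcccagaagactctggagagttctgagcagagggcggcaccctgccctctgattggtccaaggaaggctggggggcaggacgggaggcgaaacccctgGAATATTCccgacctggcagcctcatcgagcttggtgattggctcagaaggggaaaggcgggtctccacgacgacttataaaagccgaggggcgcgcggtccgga
HSPA6: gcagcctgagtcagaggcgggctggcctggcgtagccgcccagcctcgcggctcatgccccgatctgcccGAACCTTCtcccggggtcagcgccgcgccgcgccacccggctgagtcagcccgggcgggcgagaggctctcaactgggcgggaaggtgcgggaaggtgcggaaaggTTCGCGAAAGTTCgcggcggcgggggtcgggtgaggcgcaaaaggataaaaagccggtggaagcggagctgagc
HSPA8 holds 2 triple matches, from 230 to 218 and from 55 to 43 bases before its start. HSPA6 also holds a triple match, from 74 to 62 bases before its start, beside a pair match from 180 to 173. HSPA1A and HSPA1B each hold a single pair match in this window, from 106 to 99 and from 105 to 98 bases before the start. A match is a description of letters and not a shown binding site.

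RefSeq windows were found for 37 of 42 members (none for HSPA14, FKBP4, ST13, STUB1 and HSF1). The triple form was in 8 of them (21.6%), against 0.557% of 27303 genes: CHORDC1, DNAJB6, HSP90AA1, HSP90AB1, HSPA6, HSPA8, HSPD1 and SERPINH1. The pair form was in 18 (48.6%), against 14.0% of genes. Members with and without the triple form had median log2 fold changes of 0.26 over 8 genes and 0.25 over 29 genes, and 2 of 8 and 10 of 29 had an unadjusted p under 0.05. For the pair form the medians were 0.28 with it over 18 genes and 0.17 without it over 19 genes, and 7 of 18 and 5 of 19 had an unadjusted p under 0.05. These differences were not tested. The core of the antioxidant response element (TGACNNNGC or GCNNNGTCA), which NRF2 binds, was in 8 of 37 members (21.6%), against 13.2% of genes. Members with it had a median of 0.07 and those without it 0.26, and 1 of 8 and 11 of 29 had an unadjusted p under 0.05. This difference rests on 8 genes with a short match and was not tested either.

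**Figure D2:**
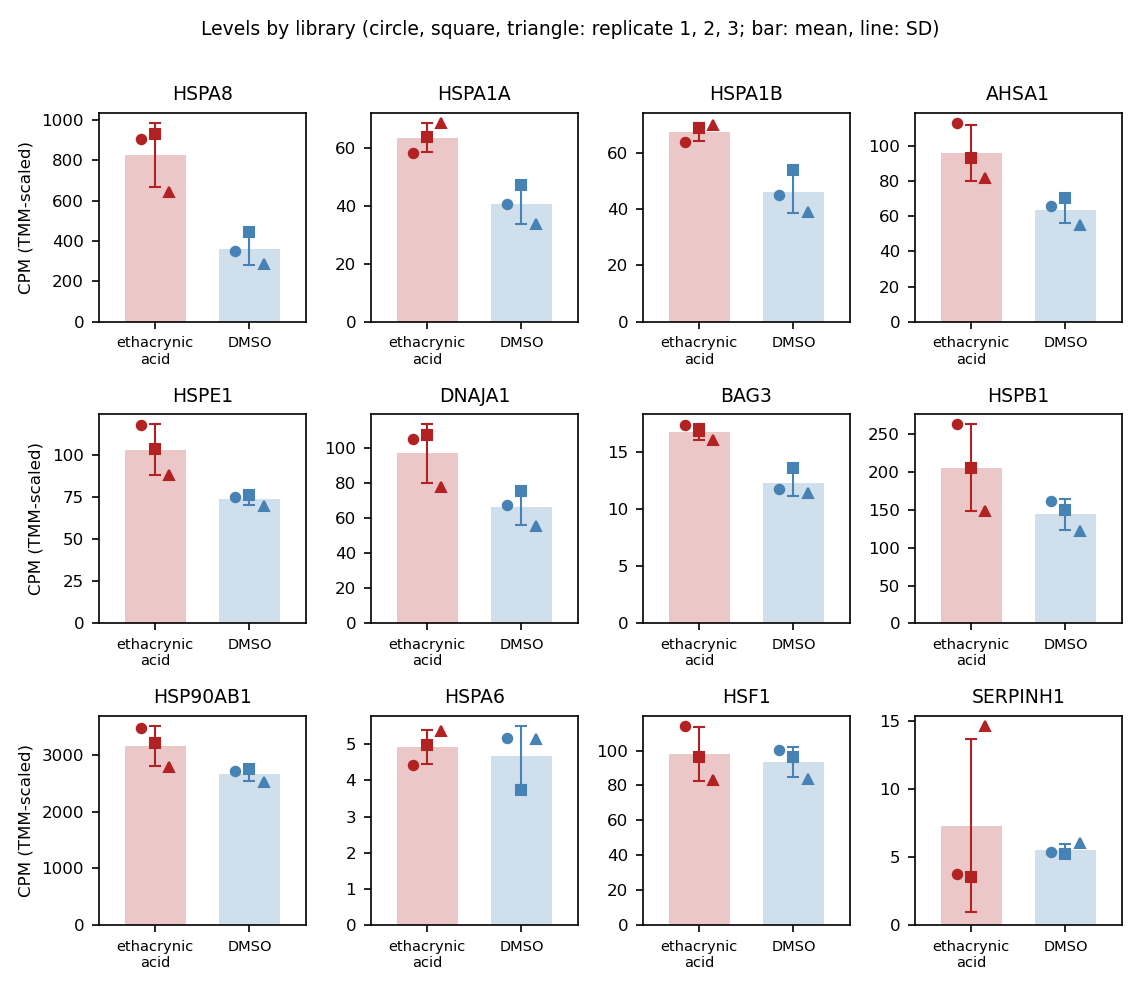
Level in CPM (vertical axis, from 0) of 12 members in each library, with ethacrynic acid left of DMSO; bars are means, lines SD, and marker shapes give the replicate number. HSPA8 separates most widely, HSPA6 and HSF1 overlap, and in SERPINH1 a single library, ethacrynic acid replicate 3, lies far above the other 5.

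Levels per length place HSPA8 in the family. HSPA8 made up 73.7%, 73.2% and 65.3% of the CPM per kb of exon of the 7 HSP70 genes under ethacrynic acid, against 57.9%, 61.4% and 57.0% under DMSO. Relative to HSPA9, the mitochondrial HSP70, the level of HSPA8 per kb was 3.11, 3.25 and 2.33 times as high under ethacrynic acid, against 1.17, 1.45 and 1.01 times under DMSO. In both measures the groups did not overlap. Exon length here is the union over all annotated transcripts, so levels per kb may be too low for genes with many isoforms.

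The HSP110 genes encode exchange factors that free HSP70 of ADP. HSPH1 (HSP105), the heat-inducible one, had 85.4, 110 and 89.0 CPM under ethacrynic acid, against 67.8, 84.7 and 65.5 CPM under DMSO. The groups did not overlap, with 85.4 just above 84.7 CPM, and the log2 fold change was 0.38 ± 0.14 (adjusted p = 0.403, edgeR). HSPA4 (APG-2), the constitutive one, had 100.2, 104 and 95.5 CPM under ethacrynic acid, against 97.1, 109.8 and 90.6 CPM under DMSO, a log2 fold change of 0.01 ± 0.10 (95% interval -0.22 to 0.24; -0.07 with total count scaling). HSPA4L had a log2 fold change of 0.26 ± 0.16, which was 0.09 without ethacrynic acid replicate 3 and 0.39 without ethacrynic acid replicate 1. Per kb, HSPH1 stood at 0.0544, 0.0683 and 0.0798 of the HSPA8 level under ethacrynic acid, against 0.112, 0.110 and 0.131 under DMSO.

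Both cytosolic HSP90 genes were among the most abundant members. HSP90AB1, the constitutive HSP90β, had 3482, 3212 and 2781 CPM under ethacrynic acid, against 2718, 2756 and 2517 CPM under DMSO. The groups did not overlap, by a margin of 2781 over 2756 CPM, and the log2 fold change was 0.25 ± 0.11 (adjusted p = 0.463, edgeR). HSP90AA1, the stress-inducible HSP90α, had 554, 584 and 448 CPM under ethacrynic acid, against 407, 468 and 364 CPM under DMSO. Here ethacrynic acid replicate 3 lay within the DMSO range, and the log2 fold change was 0.36 ± 0.14 (adjusted p = 0.416, edgeR). HSP90AB1 led all 42 members per length, with 1060 CPM per kb under ethacrynic acid and 894 under DMSO, followed by HSPD1 with 205 and 170.4. HSPA8 came next under ethacrynic acid, at 171 CPM per kb, whereas its 74.5 CPM per kb under DMSO lay below FKBP5, HSPB1, CDC37, HSP90AA1 and PTGES3.

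J proteins bring substrates to HSP70 and stimulate its ATPase. DNAJA1, a partner of HSPA8, had 105, 108 and 77.8 CPM under ethacrynic acid, against 67.8, 75.5 and 55.6 CPM under DMSO. The groups did not overlap, and the log2 fold change was 0.55 ± 0.16 (adjusted p = 0.302, edgeR). DNAJB1 (HSP40), the partner of inducible HSP70 and a repressor of HSF1, had 112, 98.0 and 79.6 CPM under ethacrynic acid, against 82.6, 90.5 and 69.4 CPM under DMSO. Its groups overlapped, with a log2 fold change of 0.26 ± 0.15. The other J proteins on the list were DNAJA2, DNAJA4, DNAJB2, DNAJB4 and DNAJB6, whose log2 fold changes ran from -0.26 to 0.21 with overlapping groups. The family median was 0.08 over 7 genes, -0.001 with total count scaling and -0.0002 without DMSO replicate 3. Relative to HSPA8 per kb, DNAJA1 stood at 0.207, 0.205 and 0.214 under ethacrynic acid, against 0.344, 0.302 and 0.342 under DMSO, again without overlap.

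Promoters of HSP90AA1 and DNAJB1 are shown beside that of CHORDC1, since they hold heat shock element letters near the start while their RNA overlapped between groups. They are printed as above, from chr14:102087045-102087294, chr19:14518398-14518647 and chr11:90223050-90223299, all on the minus strand. HSP90AA1 was still higher at an unadjusted p of 0.0308 (edgeR). HSP90AB1, which holds 2 triple matches and did not overlap between groups, is not printed.
HSP90AA1: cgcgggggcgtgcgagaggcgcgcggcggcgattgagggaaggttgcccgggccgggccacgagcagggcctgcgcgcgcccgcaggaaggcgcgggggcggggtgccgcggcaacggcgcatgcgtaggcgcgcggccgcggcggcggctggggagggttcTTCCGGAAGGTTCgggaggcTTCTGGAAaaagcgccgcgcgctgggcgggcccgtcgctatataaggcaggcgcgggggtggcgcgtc
DNAJB1: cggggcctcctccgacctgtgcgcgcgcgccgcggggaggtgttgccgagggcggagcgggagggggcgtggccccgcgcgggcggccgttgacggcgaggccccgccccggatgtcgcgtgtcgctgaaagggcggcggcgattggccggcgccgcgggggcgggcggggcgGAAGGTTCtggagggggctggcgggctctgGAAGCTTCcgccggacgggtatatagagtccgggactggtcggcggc
CHORDC1: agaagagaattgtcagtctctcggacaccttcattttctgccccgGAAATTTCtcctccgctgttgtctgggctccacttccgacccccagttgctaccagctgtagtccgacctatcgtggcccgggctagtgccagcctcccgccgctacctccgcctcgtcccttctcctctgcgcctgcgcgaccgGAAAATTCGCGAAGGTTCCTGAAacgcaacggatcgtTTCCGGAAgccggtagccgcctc
HSP90AA1 has a triple match from 88 to 76 bases before this start, one of 2 annotated starts of the gene. DNAJB1 has pair matches alone, from 77 to 70 and from 47 to 40, in 1 of its 3 windows, and no match in the others. CHORDC1, an HSP90 co-chaperone with a zinc-binding CHORD domain, has the longest run of the printed windows, from 60 to 38 bases before the start, and its log2 fold change was 0.19 ± 0.21 (adjusted p = 0.772, edgeR; 0.07 without ethacrynic acid replicate 3).

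HSPB1 (HSP27), the only small heat shock protein among the members, holds unfolded proteins and caps actin filaments. It had 263, 205 and 149 CPM under ethacrynic acid, against 161, 149 and 122 CPM under DMSO. The 3 ethacrynic acid libraries spread more than the DMSO libraries, and replicate 3 lay within the DMSO range. The log2 fold change was 0.51 ± 0.20 (adjusted p = 0.424, edgeR). Over the fits without a library it ran from 0.30, without ethacrynic acid replicate 1, to 0.69, without ethacrynic acid replicate 3, and it was 0.40 without DMSO replicate 3. Of 9 other small heat shock protein genes, 7 were too low to test (CRYAA, CRYAB, HSPB2, HSPB3, HSPB7, HSPB8 and HSPB9). The smallest p among the 2 tested was that of HSPB6, a muscle small heat shock protein, at 0.694 to 1.43 CPM under ethacrynic acid and 1.40 to 1.91 CPM under DMSO (log2 fold change -0.60 ± 0.34, adjusted p = 0.538 by edgeR).

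In mitochondria, HSPD1 (HSP60) forms the folding chamber and HSPE1 (HSP10) its lid. HSPE1 had 118, 104 and 88.2 CPM under ethacrynic acid, against 75.3, 76.1 and 70.1 CPM under DMSO. The groups did not overlap, and the log2 fold change was 0.49 ± 0.12 (adjusted p = 0.209, edgeR). HSPD1 had 925, 924 and 758 CPM under ethacrynic acid, against 719, 796 and 655 CPM under DMSO, with a log2 fold change of 0.26 ± 0.12 and ethacrynic acid replicate 3 inside the DMSO range. The genes lie head to head on chromosome 2 with RefSeq starts 105 bases apart, and their annotated exons overlap on opposite strands, so part of their counts may be shared. The lid-to-chamber ratio per kb was 0.275, 0.241 and 0.250 under ethacrynic acid, against 0.225, 0.205 and 0.230 under DMSO. HSPA9 (mortalin, the import motor), TRAP1 (mitochondrial HSP90) and DNAJA3 (a mitochondrial J protein) had log2 fold changes of -0.06 ± 0.08, 0.06 ± 0.13 and -0.05 ± 0.08. Their 95% intervals stayed within -0.25 to 0.37.

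BAG proteins release substrates from HSP70 and direct them to other fates. BAG1, which links HSP70 to the proteasome, had 79.0, 66.0 and 59.0 CPM under ethacrynic acid, against 49.3, 54.7 and 43.6 CPM under DMSO. BAG3, an HSF1 target that links HSP70 and small heat shock proteins to autophagy, had 17.4, 16.8 and 16.0 CPM under ethacrynic acid, against 11.8, 13.6 and 11.4 CPM under DMSO. Neither gene overlapped between groups, with log2 fold changes of 0.47 ± 0.14 (adjusted p = 0.298, edgeR) for BAG1 and 0.45 ± 0.12 (adjusted p = 0.267, edgeR) for BAG3, and DESeq2 called both. BAG6, the most abundant member of the family per kb and a handler of tail-anchored proteins, had 369, 307 and 298 CPM under ethacrynic acid, against 303, 289 and 273 CPM under DMSO. Its groups overlapped (log2 fold change 0.17 ± 0.11). BAG2, an inhibitor of the ubiquitin ligase STUB1, was at 0.30 without overlap (0.19 without ethacrynic acid replicate 3), and BAG5 at 0.03 with overlap.

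Among HSP90 co-chaperones, AHSA1, the activator of the HSP90 ATPase, had 113, 93.0 and 81.9 CPM under ethacrynic acid, against 65.6, 70.3 and 55.1 CPM under DMSO. FKBP4 (FKBP52), the immunophilin that favours steroid receptor signalling, had 234, 207 and 174 CPM under ethacrynic acid, against 164, 159 and 136 CPM under DMSO. In both genes the groups did not overlap, and the log2 fold change was 0.59 ± 0.14 for AHSA1 (adjusted p = 0.209, edgeR) and 0.42 ± 0.13 for FKBP4 (adjusted p = 0.338, edgeR). FKBP5 (FKBP51), its counterpart that restrains those receptors, had a log2 fold change of -0.11 ± 0.13 with overlapping groups. CDC37, the adaptor that brings kinases to HSP90, had 386, 309 and 262 CPM under ethacrynic acid, against 291, 277 and 236 CPM under DMSO (log2 fold change 0.25 ± 0.15). Of the remaining members, ST13 (HIP), which stabilises the ADP state of HSP70, was at 0.18 ± 0.08 without overlap, and STIP1 (HOP), STUB1 (CHIP) and PTGES3 (p23) were at 0.21, 0.23 and 0.07 with overlap.

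HSF1, the main activator of heat shock genes, had 114, 96.3 and 83.4 CPM under ethacrynic acid, against 100.5, 96.2 and 83.7 CPM under DMSO. The groups overlapped, with ethacrynic acid replicate 1 above every DMSO library, and the log2 fold change was 0.07 ± 0.13 with a 95% interval of -0.24 to 0.37 (-0.02 with total count scaling). HSF2, which can form mixed trimers with HSF1, was at -0.06 ± 0.12. RNA levels say nothing of HSF1 protein or its activity, which were not measured.

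SERPINH1 (HSP47) had 3.75, 3.51 and 14.6 CPM in ethacrynic acid replicates 1, 2 and 3, against 5.35, 5.18 and 6.02 CPM in DMSO replicates. Replicate 3 lay above every other library while replicates 1 and 2 lay below all DMSO libraries. The log2 fold change was 0.40 ± 0.52, and without ethacrynic acid replicate 3 it was -0.61 (unadjusted p = 0.0133, adjusted p = 0.204, edgeR). Replicate 3 is the library with the epithelial markers at 438 CPM, and their part in the SERPINH1 value was not tested.

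**Figure D3:**
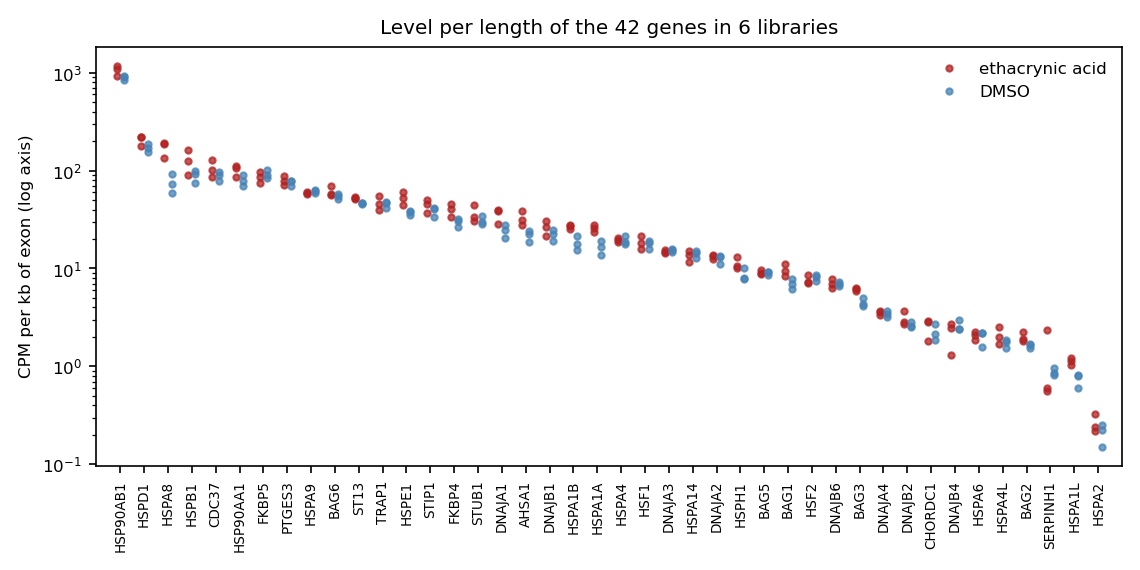
Level per kb of exon (vertical log axis) of the 42 genes in order of their mean, in each of the 6 libraries, with ethacrynic acid (red) left of DMSO (blue). HSP90AB1 is highest near 977 CPM per kb over all libraries, HSPA2 lowest near 0.234, and the red and blue points of HSPA8 are the most widely parted.

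Over the whole set, the summed level was 11017, 10669.9 and 9109.6 CPM under ethacrynic acid, against 8697, 9192 and 8001 CPM under DMSO. The groups overlapped, since ethacrynic acid replicate 3 lay below DMSO replicate 2, and the means stood in a ratio of 1.19. Of the difference of 1635 CPM between the means, HSP90AB1 gave 495 and HSPA8 467. Members took 1.01%, 1.04% and 0.935% of all counts under ethacrynic acid, against 0.884%, 0.932% and 0.844% under DMSO.

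Libraries differed within groups in a shared way. Deviations of members were taken from their mean over the DMSO libraries. Their median was 0.30, 0.21 and 0.07 (log2) in ethacrynic acid replicates 1, 2 and 3, against 0.03, 0.06 and -0.11 in DMSO replicates. Replicate 3 was the lowest of its group in 28 of 42 members under ethacrynic acid and in 33 of 42 under DMSO. Shares over all genes were not computed for this order. Totals within the groups were smallest in ethacrynic acid replicate 2 (57516146 counts) and DMSO replicate 1 (66907158 counts). The TMM factor was largest in replicate 3 of both groups, at 1.03 under ethacrynic acid and 1.05 under DMSO. The cause was not tested.

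Other chaperone systems were read from lists of related genes, in which 0 genes were called by the edgeR test at an adjusted p under 0.05, where 0.265% of all genes were. In the endoplasmic reticulum, 13 of 14 chaperone genes had a positive log2 fold change, where 49.9% of all genes did. At an unadjusted p under 0.05, 6 were higher, beside 6.54% of all genes. The median of these chaperones was 0.23 (0.15 with total count scaling). HSPA5 (BiP), the HSP70 of that compartment, had 504, 489 and 519 CPM under ethacrynic acid, against 363, 392 and 319.6 CPM under DMSO. Its groups did not overlap, and ethacrynic acid replicate 3 was here the highest library. The log2 fold change was 0.49 ± 0.10 (adjusted p = 0.144, edgeR). DESeq2 called HSPA5, HSP90B1, PDIA4 and CALR higher, where it called 2% of all genes higher.

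Subunits of the cytosolic chaperonin CCT, which folds actin and tubulin, were positive in 8 of 8 cases with a median of 0.10, and in 5 of 8 with a median of 0.02 with total count scaling. Over the fits without a library the CCT median ran from 0.03 (DMSO replicate 3 left out, and likewise ethacrynic acid replicate 1) to 0.17 (ethacrynic acid replicate 3 left out). The smallest p was that of CCT7 (log2 fold change 0.21 ± 0.14, adjusted p = 0.598, edgeR). Prefoldin, which hands nascent actin and tubulin to CCT, had a median of 0.16 over 6 genes, 0.07 with total count scaling, 0.07 without ethacrynic acid replicate 1 and 0.09 without DMSO replicate 3. Its smallest p was that of PFDN5, at 87.2, 67.8 and 56.7 CPM under ethacrynic acid, against 52.7, 49.4 and 46.7 CPM under DMSO (0.51 ± 0.15, adjusted p = 0.327, edgeR). PFDN5 did not overlap between groups, and CCT7 did.

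Other J proteins had a median of -0.003 over 19 genes, with 9 positive, 0 higher and 2 lower at an unadjusted p under 0.05. DESeq2 called 1 of the 19 genes lower and 0 higher, where it called 1.05% of all genes lower. DNAJB5, an HSP40 of the B class, was at 6.47, 6.09 and 5.24 CPM under ethacrynic acid, against 8.43, 8.15 and 8.83 CPM under DMSO, without overlap and opposite to DNAJA1 in sign (-0.51 ± 0.16, adjusted p = 0.336, edgeR). Mitochondrial chaperone partners and proteases had a median of -0.002 over 13 genes, from -0.03 to 0.05 over the fits without a library, and their smallest p was that of DNAJC19, an import motor subunit (-0.15 ± 0.10, adjusted p = 0.597, edgeR). Other HSP90 co-chaperones had a median of 0.20 over 9 genes, 0.11 with total count scaling, 0.05 without ethacrynic acid replicate 1 and 0.08 without DMSO replicate 3. Their smallest p was that of PPID, the cyclophilin CYP40 (0.21 ± 0.10, adjusted p = 0.477, edgeR). Other HSP70 and exchange genes had a median of -0.04 over 5, which was -0.12 with total count scaling and ran from -0.10 to 0.04 over the fits without a library, with HSPA12A at 0.125 to 0.606 CPM under ethacrynic acid and 0.427 to 1.18 CPM under DMSO (-0.99 ± 0.63, adjusted p = 0.583, edgeR). Further partners and non-chaperone targets of heat shock factors had a median of 0.18 over 9 tested genes (0.10 with total count scaling and without ethacrynic acid replicate 1), with VCP, an unfolding ATPase of protein degradation, at 313, 307 and 261 CPM under ethacrynic acid, against 237, 249.8 and 207 CPM under DMSO (0.34 ± 0.11, adjusted p = 0.352, edgeR).

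**Figure D4:**
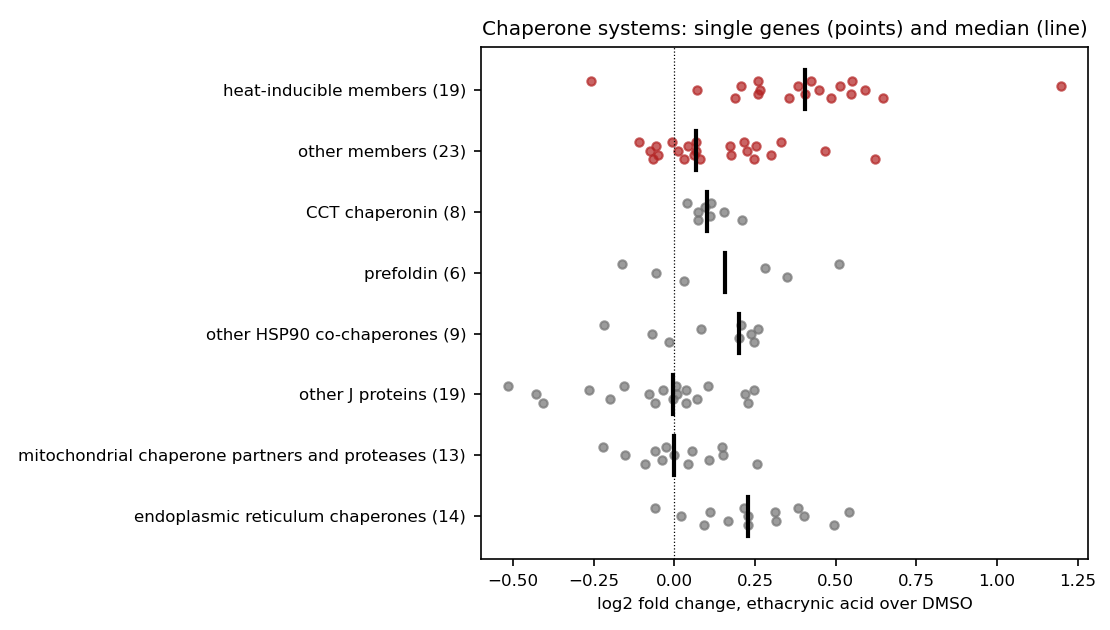
Log2 fold change of ethacrynic acid over DMSO (horizontal axis) for single genes (points) of 8 chaperone groups, with medians as black lines and gene numbers in brackets. The heat-inducible members, a list chosen with earlier results of these data known, have a median of 0.40. The endoplasmic reticulum chaperones have 0.23, whereas other J proteins and mitochondrial partners lie around 0.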

How the data were processed

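The deposited table holds whole-number counts per Ensembl gene, unscaled. Per the submitters' processing notes the tools were edgeR, fastp, HISAT2 and StringTie 1.3.4d, on GRCh38, with no roles; annotation release, strand setting and counting were not given in the sources used here. Per the labels' protocols, libraries came from total RNA with a SMARTER mRNA-seq kit. Counts of 4 were more frequent (7717) than of 3 (4292) or 5 (2637), so a read pair may be worth more than 1 count and precision at these depths is an upper limit. Reads of copies and overlapping genes may be shared: 22 members have a named copy, 8 share exon sequence with a gene on the same strand and 16 on the other.

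Symbols were matched for 61757 of 61806 IDs; gene coordinates are GENCODE 29 (GRCh38) and promoters RefSeq (GRCh38.p14). Genes kept by filterByExpr (minimum count 10, total 15) were tested with edgeR 4.0.16 (TMM, quasi-likelihood F-test, group only) in R 4.3.3, with limma 3.58.1; DESeq2 1.42.0 was an alternative. SE was derived from the log2 fold change and the F statistic. Common dispersion was 0.0845 (29.1% as a coefficient of variation). Values of every library are given for members with an adjusted or unadjusted p under 0.05, the most abundant member of each family per kb, HSF1 and classical heat-inducible genes; of other lists, the gene with the smallest p. Members, lists and rules were chosen with earlier results of these data known. Plots used Python 3.11.15 and matplotlib 3.10.9.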

Additional observations from a re-analysis of the deposited data

How the results depend on the processing

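Members called higher numbered 0 in the edgeR test and also with RLE, upper-quartile or total count scaling, no filter, limma-voom, counts divided by 4 and counts summed with copies. They numbered 1 with a stricter filter (5 CPM in 3 libraries, 40 members tested), 8 with DESeq2 and 6 with the replicate number as a block (AHSA1, DNAJA1, FKBP4, HSPA8, HSPE1 and HSPH1, where 1.26% of all genes were called higher). Leaving out each library in turn gave 0 to 1, with HSPA8 called without ethacrynic acid replicate 3. Members called lower numbered 0 under every alternative run, and the median of the members lay between 0.15 and 0.27. Over all genes, calls numbered 52, and 4 to 148 without single libraries, 598 with DESeq2, 355 with the block, 14 with no filter and 96 with the stricter filter; the cause was not tested.

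Same-numbered libraries deviated together with correlations of 0.161, 0.0585 and 0.0868, which does not show that the numbers pair them. Each ethacrynic acid library did correlate best with the DMSO library of its own number. Among the genes given with values of every library, signs turned in HSPA6, HSPA4, HSF1 and SERPINH1. HSPA6 was at -0.0051 with total count scaling, -0.092 summed with its copy, and between -0.070 and 0.15 over the fits without a library (-0.00057 without ethacrynic acid replicate 3). HSPA4 was at -0.067 with total count scaling and between -0.052 and 0.089 without a library, below 0 without ethacrynic acid replicate 2, DMSO replicate 1 or DMSO replicate 3. HSF1 was at -0.018 with total count scaling and between -0.049 and 0.16 without a library, below 0 without ethacrynic acid replicate 1 or DMSO replicate 3. SERPINH1 lay between -0.61, without ethacrynic acid replicate 3, and 0.73. Of the other members, BAG5, DNAJA2, DNAJA4, PTGES3 and TRAP1 turned sign with total count scaling, and DNAJB4, DNAJB6 and HSPA14 without ethacrynic acid replicate 1 or 3. Without ethacrynic acid replicate 3, STIP1 was at 0.31, TRAP1 at 0.16 and PTGES3 at 0.13. The cause was not tested. Of 42 members 5 lay under 10 CPM, where 3 libraries a group limit what can be seen.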

Other observations

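Outside the chaperones, 6 of the 10 monocytic and myeloid markers had a positive log2 fold change and 4 a negative one, with a median of 0.18 and 0 called. PTPRC (CD45), the common leukocyte phosphatase, had 113, 168 and 159.5 CPM under ethacrynic acid, against 184, 211 and 229 CPM under DMSO, without overlap (-0.50 ± 0.16, adjusted p = 0.347, edgeR). MPO, CD33 and CD4 were at -0.41, -0.08 and -0.05.

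The same list held CD68, a lysosomal protein of macrophages, at 177, 154 and 115 CPM under ethacrynic acid, against 71.9, 76.8 and 69.4 CPM under DMSO. The groups did not overlap, and the log2 fold change was 1.03 ± 0.15 (adjusted p = 0.0589, edgeR). LYZ, lysozyme, had 582, 884 and 502 CPM under ethacrynic acid, against 180.1, 302 and 149 CPM under DMSO, also without overlap (1.64 ± 0.30, adjusted p = 0.107, edgeR). The genes named here were chosen from the list after their values were seen. CD68 and LYZ passed an adjusted p of 0.05 without ethacrynic acid replicate 3 in the same test. That fit called 0.592% of all genes higher, against 0.229% with all libraries.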
